A study of Mus musculus with 4 samples.

Results

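Guidance cues and their receptors were examined in open chromatin maps of mouse lung. The 70 members were all protein-coding genes of the mm10 annotation whose symbols begin Sema, Plxn, Epha, Ephb, Efna, Efnb or Unc5, together with Nrp1, Nrp2, Slit1 to Slit3, Robo1 to Robo4 and Ntn1, Ntn3, Ntn4 and Ntn5, among 21883 protein-coding genes in all. They were 20 semaphorins, 9 plexins, 2 neuropilins, 8 ephrins, 14 Eph receptors, 3 Slits, 4 Robos, 4 netrins and 6 genes named Unc5. Unc50 and Unc5cl entered by the spelling of their symbols and are not netrin receptors, and leaving them out changed the count of open genes from 63 of 70 to 61 of 68. The tissue was lung of wild-type (wt) embryos at E15.5, assayed by ATAC-seq, a method that reads accessible DNA from the cuts made by Tn5. There was 1 group of 4 libraries, numbered 1 to 4, each made from 60000 nuclei, and no treated or mutant group, so no contrast between conditions was possible. The labels do not say whether the libraries came from separate embryos, and every spread between them may be technical.

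Guidance molecules steer growing axons, vessels and epithelial buds. Secreted class 3 semaphorins signal through neuropilins paired with plexins, membrane-bound semaphorins bind plexins directly, and ephrins on one cell bind Eph receptor kinases on its neighbour. Slits act through Robo receptors, and netrins through Dcc, neogenin and the Unc5 receptors. In lung, members of these families are known from airway branching, from the sorting of arterial and venous endothelium and from the ingrowth of nerves.

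The 4 lists held 134503, 186199, 211678 and 192842 peaks on chromosomes 1 to 19, X and Y. Replicate 1 had the shortest list and the highest median fold over background, 8.99 against 3.73 to 3.90 in the others, which corresponds to a summit pileup of 27 at its median peak and 11 to 13 in the others. Its peaks are named with a French term meaning fresh and the peaks of the other lists with the term frozen, whereas the labels describe all lungs as frozen. In bulk tissue, a peak carried by few cells and a weak peak in many cells cannot be told apart. Markers fixed for the check had a gene-end peak in all 4 libraries at 6 of 6 genes of lung epithelium, 6 of 6 of lung mesenchyme, 5 of 6 of endothelium, 4 of 6 of nerve and glia, 2 of 6 of blood and 3 of 3 of mesothelium, against 0 of 4 liver genes. Of all protein-coding genes 66.7% had such a peak, and the counts for endothelium and for nerve and glia lie near that share. Some calls rested on weak peaks, as at Pecam1, at percentiles 14.3, 18.1, 42.3 and 45.7 of fold in replicates 1 to 4.

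Open genes were those at which each of the 4 lists had a peak overlapping 1 kb on either side of an annotated gene end. Of the 70 guidance genes 63 (90%) were open, against 66.7% of all protein-coding genes. Epha6 alone lacked such a peak in all 4 libraries, as did 22.3% of all genes. At least 3 libraries had a peak at 66 of 70 members (94.3%), against 71.5% of all genes. The gap to all genes was smaller when the summit itself had to lie inside the window: 46 guidance genes (65.7%) were then open, against 60.5% of all genes. By library, 65, 66, 66 and 68 members had a gene-end peak in replicates 1 to 4.

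The strength of a peak was expressed as its percentile of fold among all peaks of its own library, because fold differed in scale between lists. A percentile still depends on the length of its list. With lists cut to equal length, the mean of the 4 library medians over members was 92.0, against 93.6 with the full lists. The median member with a peak stood at the 88.8th, 94.7th, 95.7th and 95.2nd percentile in replicates 1 to 4, and the median of all genes with a peak at 90.5, 95.1, 95.5 and 95.1. The medians of guidance genes thus lay close to those of genes at large. The peak exceeded the 95th percentile in all 4 libraries at 20 members (28.6%), against 21.9% of all genes. It exceeded the 99th at 3 members (4.29%), Ephb3, Ephb4 and Sema4c, against 5.33% of all genes, a share near the background. In 16 members (22.9%) the strongest peak also touched the gene end of another protein-coding gene in at least 1 library, and in those it need not belong to the guidance gene. The share over all genes is not given here, so the count is only a limit on these values.

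**Figure D1:**
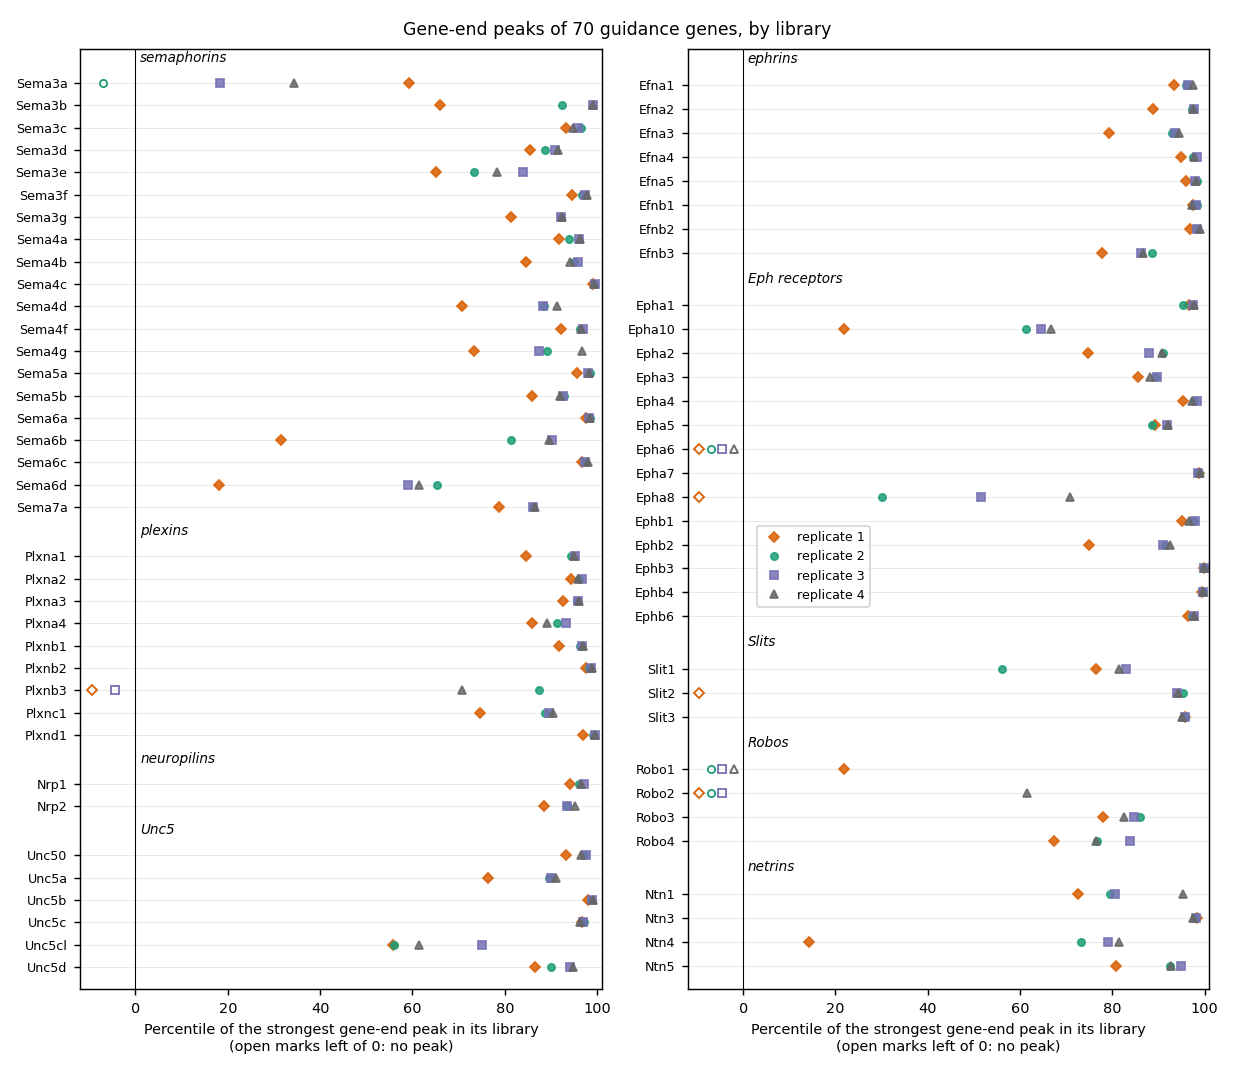
Percentile of fold of the strongest gene-end peak (x axis, 0 to 100) for each of the 70 genes, with 1 mark per library and open marks left of 0 where a library had no peak. Most marks lie at the right, and replicate 1 lies far to the left of the others at Ntn4 (14.3), Sema6d (18.1), Epha10 (21.8) and Sema6b (31.4).

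Among the secreted class 3 semaphorins, 6 of 7 were open. Sema3f, which repels cells that carry neuropilin-2, stood at the 94.5th, 96.8th, 97.4th and 97.9th percentile in replicates 1 to 4 (mean 96.6 ± 1.48, SD, n = 4, as for every ± below). Sema3c, a ligand of vessel and airway patterning, stood at 93.3, 96.6, 95.8 and 94.8. Both genes lay above the median of all genes in replicates 1 to 3. Sema3e, which binds Plxnd1 without a neuropilin, was lower at 65.2, 73.3, 83.9 and 78.4. Sema3b, a neighbour of Sema3f on chromosome 9, ranged from 65.9 in replicate 1 to 92.4, 99.1 and 99.1 in the others, and in 2 libraries its peak was shared with the end of Gnai2. Sema3g, a semaphorin of endothelium, stood at 81.4, 92.1, 92.1 and 92.4.

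Sema3a was the only semaphorin that was not open. This axon repellent, which is also known to restrain airway branching, spans chromosome 5 from 13124822 to 13603485 (mm10). Its gene ends had weak peaks at the 59.2nd, 18.4th and 34.3rd percentile in replicates 1, 3 and 4 and none in replicate 2. The gene was not devoid of accessible DNA, since 35, 13, 8 and 19 summits lay inside it in replicates 1 to 4. Among regions within 100 kb of its ends and over 2 kb from every gene end, the strongest with a peak of all 4 libraries, from 13625487 to 13626827, lay 22.7 kb from the gene at percentile 93.9 ± 1.92.

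Membrane-bound semaphorins were open at 13 of 13 genes. Sema4c, a ligand of class B plexins on chromosome 1 from 36548639 to 36560699, was the highest at 99.1, 99.3, 99.5 and 99.4 in replicates 1 to 4, but its summit lay outside the window in every library and the peak also touched the end of Ankrd39. Sema4d, the ligand of Plxnb1, stood at 70.7, 88.5, 88.4 and 91.3, the lowest mean of the Sema4 genes (84.7 ± 9.45). Sema5a, with thrombospondin repeats outside the membrane, stood at 95.7, 98.4, 97.9 and 98.2 and its relative Sema5b at 85.8, 92.9, 92.7 and 92.0. The Sema6 genes, ligands of class A plexins, were uneven. Sema6a stood at 98.2 ± 0.39 and Sema6c at 97.3 ± 0.52, whereas Sema6b stood at 31.4, 81.4, 90.3 and 89.5 and Sema6d at 18.1, 65.2, 58.9 and 61.5. The summit of the Sema6a peak lay outside the window in every library, unlike those of the other Sema6 genes. Sema7a, which is held to the membrane by a lipid anchor, stood at 84.4 ± 3.77.

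All 8 ephrins were open, with a median percentile of 94.1, 97.4, 97.8 and 97.4 in replicates 1 to 4. With the summit required inside the window, 4 of the 8 were open. Efnb2, the ephrin of arterial endothelium, on chromosome 8 from 8617235 to 8661242, stood at 96.8, 98.2, 98.3 and 98.9. Efnb1 on chromosome X stood at 97.4, 98.3, 98.1 and 97.2, and these 2 genes had their summits inside the window in all libraries. Efnb3 was lower at 77.6, 88.5, 86.2 and 86.7, through a peak that also touched Wrap53 in 3 libraries. Efna5, a lipid-anchored ephrin, stood at 97.5 ± 1.02 through a peak whose summit lay upstream, at −1798 to −1758 bases from the annotated start. Efna1, Efna3 and Efna4 lie together on chromosome 3 and stood at 95.7 ± 1.74, 90.1 ± 7.20 and 97.1 ± 1.51. The peak of Efna4 also touched the end of Adam15 in every library, so it cannot be assigned to the ephrin alone.

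Of the Slits, Slit3 was uniform at 95.7, 95.7, 95.6 and 95.1, with its summit at −374 to −372 bases from the annotated start. Slit1 stood at 76.4, 56.0, 82.9 and 81.4. Slit2 had gene-end peaks at 95.2, 94.0 and 94.1 in replicates 2 to 4 and none in replicate 1, so 2 of 3 Slits were open with all libraries and 3 of 3 without replicate 1. Netrins were open at 4 of 4 genes. Ntn1, the founding axon attractant, stood at 72.6, 79.4, 80.5 and 95.2. Replicate 4 was the high one, and in 1 library, not identified here, the strongest peak also touched Stx8. Ntn4, a basement membrane netrin, stood at 14.3 in replicate 1 and 73.3, 79.0 and 81.4 in the others, so its call as open rested on a weak peak in replicate 1. Ntn3 stood at 98.0 ± 0.37 through a peak shared with Tbc1d24, and Ntn5 at 90.2 ± 6.43 through a peak whose summit lay outside its windows.

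Plexins were open at 8 of 9 genes. Plxnd1, the endothelial receptor of Sema3e, on chromosome 6 from 115954811 to 115995339, stood at 96.8, 99.2, 99.5 and 99.4. The summit of its strongest peak lay in the window in 1 library only. In replicates 2 to 4 that peak was not the one at the annotated start, which stood at 97.2, 97.0 and 98.4. Plxnb2 stood at 97.6, 98.3, 98.7 and 98.96 through a peak that also touched Dennd6b. Both were above the 95th percentile in all libraries. Plxna1, Plxna2 and Plxna3, which pair with neuropilins, stood at 92.3 ± 5.11 (with a peak shared with Gm40415), 95.7 ± 1.01 and 95.1 ± 1.59, and Plxna4 at 89.9 ± 3.19. Plxnb1 stood at 95.4 ± 2.42, with a peak shared with Ccdc51, and Plxnc1, the receptor of Sema7a, at 85.9 ± 7.56. Plxnb3 on chromosome X had peaks only in replicates 2 and 4, at 87.4 and 70.8. The neuropilins were both open. Nrp1, which also binds VEGF, stood at 94.0, 96.0, 97.1 and 96.5, with its summit at −1832 to −1784 bases from the annotated start. Nrp2, the neuropilin of lymphatic vessels and veins, stood at 88.6, 93.6, 93.5 and 95.3.

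Eph receptors were open at 12 of 14 genes, with mean percentiles from 50.8 to 99.8 among the 13 with any peak. Ephb3, on chromosome 16 from 21204620 to 21223309, had the strongest peak of all members, with folds of 333, 121, 94.98 and 98.3 and percentiles of 99.8, 99.9, 99.8 and 99.8 in replicates 1 to 4. Ephb4, the venous partner of Efnb2, on chromosome 5 from 137350109 to 137374522, stood at 99.4, 99.6, 99.6 and 99.7. Neither gene varied between libraries by more than a fraction of a percentile. Epha7 stood at 98.7 ± 0.20, Epha4 at 97.1 ± 1.29 and Ephb1 at 96.7 ± 1.22. Epha2, an epithelial receptor, was lower at 74.6, 91.0, 87.9 and 90.8, and so was Ephb2 at 75.0, 91.4, 90.9 and 92.4. At the low end, Epha10, whose kinase domain is inactive, stood at 21.8, 61.2, 64.6 and 66.7 through a peak shared with Maneal. Epha8, known mainly from brain, had no peak in replicate 1 and stood at 30.0, 51.6 and 70.8 in the others.

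Robos had the lowest median gene-end percentile of the 9 families, 77.3 ± 7.48. The median covered the 3, 2, 2 and 3 Robos with a peak in replicates 1 to 4, not always the same genes. Robo4, the endothelial Robo, stood at 67.2, 76.7, 83.9 and 76.4, and its neighbour Robo3, known from commissural axons, at 77.9, 86.1, 84.7 and 82.6. Neither had its summit in the window in all libraries. Robo1 had a gene-end peak in replicate 1 only, at percentile 21.8, and Robo2 in replicate 4 only, at 61.5. The Unc5 genes were open at 6 of 6. Unc5b, the Unc5 receptor of endothelium, stood at 98.0, 98.7, 98.9 and 99.03, Unc5c at 96.8 ± 0.41, Unc5d at 91.4 ± 3.80 and Unc5a, whose peak was shared with Hk3, at 86.8 ± 6.95. Unc50 stood at 96.2 ± 2.00 through a peak shared with Coa5, and Unc5cl at 62.1 ± 9.0.

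Gene ends miss promoters that lie inside a gene, so the annotated starts of RefSeq (build GRCm38.p6, the assembly of mm10) were examined separately. The promoter table held 77 starts of 61 members, and 9 members had no entry. A peak touched 1 kb on either side of the start in all 4 libraries at 68 of 77 starts (88.3%), against 66.2% of all annotated starts. With the summit required inside that window the count was 53 of 77 (68.8%), against 58.6%. At 58 of the 61 genes (95.1%) at least 1 start was open, against 66.5% of genes in the table.

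At 4 of the 7 genes that were not open at their ends, a start inside the annotated gene was open. Robo1, on chromosome 16 from 72027518 to 73047491, had its tabulated start at 72663149, which is 636 kb inside the gene. A peak lay there at percentile 89.4, 91.8, 89.6 and 93.8 in replicates 1 to 4, with its summit 7 to 255 bases after the start. Robo2, on the same chromosome from 73891976 to 75447443 and read from the minus strand, had 3 tabulated starts, and their values differed. The start at 74411825, which is 1036 kb inside the gene, stood at 96.2, 95.2, 96.2 and 95.02. The outermost start had a peak in replicate 4 only (61.5), and the start 355 kb inside had none, with the nearest summit 192 to 214 kb away.

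Slit2 and Epha6 were the other genes of this kind. The Slit2 start, 1.86 kb inside the gene on chromosome 5 at 47983155, stood at 89.8, 95.2, 94.0 and 94.1, so replicate 1 lacked only the gene-end overlap. Epha6, the gene with no gene-end peak, had its start 5.38 kb inside the gene at 60605531 on chromosome 16, with weaker peaks at 36.8, 68.5, 68.9 and 61.5. Counting gene ends and starts together, 67 of 70 members (95.7%) had a peak in all 4 libraries, against 69.5% of all genes. The remaining genes were Sema3a, Epha8 and Plxnb3. The tabulated Sema3a start, 272 kb inside the gene, had no peak within 1 kb, but the nearest summit was 2.58 to 2.68 kb away in all libraries.

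The sequences at these starts are shown because, over all members, open starts held more CG dinucleotides than the others, although single genes departed from that. Each run is 300 bases from RefSeq, from 250 bases before to 50 after the start, written 5′ to 3′ on the gene's strand, with every CG dinucleotide in capitals. The Ephb3 start (chr16:21204545-21204844, plus strand) had the highest mean percentile of all tabulated starts, 99.8 ± 0.04. The open Robo1 (chr16:72662899-72663198, plus) and Robo2 (chr16:74411776-74412075, minus) starts were chosen after their values were seen. They are followed by the closed Robo2 start (chr16:75092721-75093020, minus) and the closed Sema3a start (chr5:13396534-13396833, plus). The outer Sema4d start (chr13:51756634-51756933, minus) had the lowest mean among starts open in all libraries, 50.4 ± 7.67. The inner Sema4d start (chr13:51739397-51739696, minus) and the inner Sema6d start (chr2:124653331-124653630, plus) had no peak.
Ephb3, highest: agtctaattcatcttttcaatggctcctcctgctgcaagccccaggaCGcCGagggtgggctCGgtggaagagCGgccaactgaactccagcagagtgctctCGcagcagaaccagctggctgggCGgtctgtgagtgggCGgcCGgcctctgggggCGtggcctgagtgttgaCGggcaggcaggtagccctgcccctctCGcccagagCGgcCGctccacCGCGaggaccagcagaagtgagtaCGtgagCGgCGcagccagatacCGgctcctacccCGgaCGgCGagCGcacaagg
Robo1, open: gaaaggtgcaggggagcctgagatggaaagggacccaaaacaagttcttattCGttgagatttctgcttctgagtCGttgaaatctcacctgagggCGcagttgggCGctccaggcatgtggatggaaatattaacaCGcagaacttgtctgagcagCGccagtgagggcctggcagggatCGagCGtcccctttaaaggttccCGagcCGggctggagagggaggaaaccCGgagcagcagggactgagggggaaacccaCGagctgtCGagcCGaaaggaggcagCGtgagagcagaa
Robo2, open: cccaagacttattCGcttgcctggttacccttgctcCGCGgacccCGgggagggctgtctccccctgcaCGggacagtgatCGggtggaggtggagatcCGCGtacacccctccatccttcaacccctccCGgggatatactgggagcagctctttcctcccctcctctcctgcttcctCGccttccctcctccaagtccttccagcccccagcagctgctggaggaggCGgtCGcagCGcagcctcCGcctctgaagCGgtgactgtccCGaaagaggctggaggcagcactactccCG
Robo2, closed: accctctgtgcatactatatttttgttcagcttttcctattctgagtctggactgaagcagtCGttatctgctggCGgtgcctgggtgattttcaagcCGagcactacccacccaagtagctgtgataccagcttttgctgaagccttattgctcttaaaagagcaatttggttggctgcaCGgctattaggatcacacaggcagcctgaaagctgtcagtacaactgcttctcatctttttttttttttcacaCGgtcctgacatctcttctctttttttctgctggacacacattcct
Sema3a, closed: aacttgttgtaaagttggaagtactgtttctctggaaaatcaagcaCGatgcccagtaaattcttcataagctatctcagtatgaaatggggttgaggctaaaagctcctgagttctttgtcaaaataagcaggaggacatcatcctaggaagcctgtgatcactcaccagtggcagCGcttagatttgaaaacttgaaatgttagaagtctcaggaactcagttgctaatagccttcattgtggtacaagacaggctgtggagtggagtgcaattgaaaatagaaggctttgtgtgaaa
Sema4d outer start, weakly open: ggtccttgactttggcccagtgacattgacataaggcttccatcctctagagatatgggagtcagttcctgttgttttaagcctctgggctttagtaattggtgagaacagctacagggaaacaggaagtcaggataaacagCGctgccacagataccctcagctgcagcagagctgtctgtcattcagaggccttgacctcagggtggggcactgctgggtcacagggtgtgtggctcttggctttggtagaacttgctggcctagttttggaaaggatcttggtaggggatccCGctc
Sema4d inner start, closed: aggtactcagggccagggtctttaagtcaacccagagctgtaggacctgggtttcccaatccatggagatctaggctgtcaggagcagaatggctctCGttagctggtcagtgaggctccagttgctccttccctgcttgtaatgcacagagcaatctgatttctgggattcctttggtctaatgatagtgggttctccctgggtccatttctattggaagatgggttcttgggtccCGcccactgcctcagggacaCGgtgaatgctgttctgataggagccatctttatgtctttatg
Sema6d inner start, closed: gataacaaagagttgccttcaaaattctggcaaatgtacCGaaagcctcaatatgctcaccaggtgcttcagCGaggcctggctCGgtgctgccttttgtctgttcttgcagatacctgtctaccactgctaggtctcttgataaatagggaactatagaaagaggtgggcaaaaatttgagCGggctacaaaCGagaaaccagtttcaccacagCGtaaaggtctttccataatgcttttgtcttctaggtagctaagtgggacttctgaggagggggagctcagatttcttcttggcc

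The Ephb3 run holds 23 CG dinucleotides, the open Robo1 run 15 and the open Robo2 run 17. The closed runs hold 5 in Robo2, 2 in Sema3a, 3 in Sema4d and 6 in Sema6d, and the weakly open Sema4d run holds 2, fewer than the closed run of the same gene. Over all members, the median was 21.5 at the 68 open starts and 5.0 at the 9 others. The ratio of observed to expected CpG was 0.678 and 0.335 in the same order. The direction was that of all annotated starts, whose median was 20 CG dinucleotides where open and 2 where no library had a peak. Epha8 was an exception, with 56 CG dinucleotides in its 300 bases and no peak in replicate 1. Robo4 was the converse, with 2 CG dinucleotides and a peak in all libraries at 47.3, 76.7, 72.3 and 76.4.

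**Figure D2:**
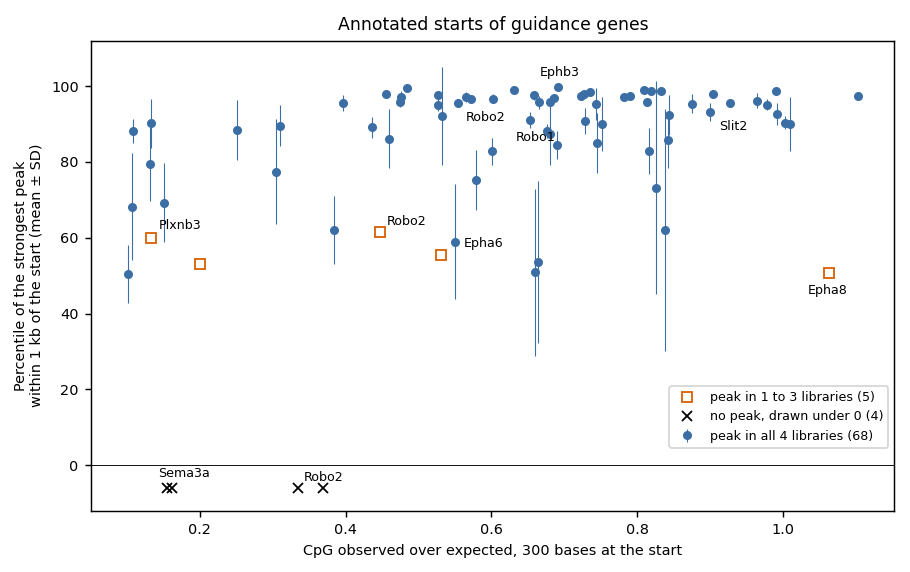
Mean percentile of the strongest peak within 1 kb of each of the 77 annotated starts (y axis, bars are SD over libraries) against the ratio of observed to expected CpG in 300 bases (x axis). The 4 starts without a peak lie at ratios up to 0.369, and open starts are found over the whole range.

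Short motifs were searched on both strands of the same 300 bases. GGGCGG, the GC box, was present at 55 of 77 guidance starts (71.4%), against 46.2% of all annotated starts. Among open starts alone the shares were 76.5% and 64.8%. TATAAA was present at 2 of 77 starts (2.60%), Efnb2 and Slit2, against 12.6% of all starts, and at 6.49% of all open starts. CCAAT was present at 22 starts (28.6%, against 38.2%), among them 9 of the 15 Eph receptor starts and none of the 8 plexin starts. The 9 include both Epha7 starts, at 28813131 and 28813145, whose windows overlap and are not separate sequences. The homeodomain core TAATTA was present at 3 starts, in Efna1, Epha5 and Robo3 (3.90%, against 4.53%). TGANTCA was present at 3 starts (against 6.99% of all), CANNTG at 40 (51.9%, against 69.0%) and CCGGAAGT at none (against 5.15%). A match describes the letters in this window and does not show a bound factor. GGGCGG and CCGGAAGT contain CG.

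Peaks were also counted within 100 kb of either gene end, by summit and per 100 kb of DNA searched. The median guidance gene had 9.96, 17.7, 19.9 and 17.4 peaks per 100 kb in replicates 1 to 4, against 6.94, 10.8, 12.8 and 11.5 for all protein-coding genes. The excess held in each library. With only summits over 2 kb from every gene end, the mean of the 4 library medians fell from 16.2 to 11.8. The value for all genes under that rule is not given here. Density was in the top 10% of all genes in every library at 8 members (11.4%), against 4.95% of all genes. They were Efna1, Efna3, Efna4, Epha2, Ntn5, Sema3g, Sema4a and Sema4c, of which the 3 ephrins share the same stretch of chromosome 3.

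Density differed widely within families. Sema4c was highest at 35.4 ± 8.97 peaks per 100 kb, followed by Epha2 at 34.8 ± 10.01, and Robo2 was lowest at 1.25 ± 0.68. Ephrins had a median of 29.4 ± 7.44 and Eph receptors, their binding partners, 7.89 ± 0.73 (SD of the family median over libraries). Within the Eph receptors, Epha genes had 4.61 ± 0.95 and Ephb genes 20.3 ± 6.71. The 2 families also differed in their surroundings, with a median of 37.2 other protein-coding genes per Mb for ephrins and 11.6 for Eph receptors. Efna1, Efna3 and Efna4 share a stretch of DNA, so their counts are largely of the same peaks. Among semaphorins, Sema3a, Sema3c, Sema3d and Sema3e had 3.12 ± 1.83, 3.80 ± 0.96, 3.12 ± 1.27 and 3.75 ± 0.82, whereas Sema3b, Sema3f and Sema3g had 27.7 ± 2.13, 24.8 ± 3.20 and 28.9 ± 7.35. The first set lies in gene-poor stretches of chromosome 5 with 0.83 to 4.06 other protein-coding genes per Mb, counted within 500 kb of the gene, and the second set has 26.7 to 38.9. Across the 70 members, density and the number of neighbours per Mb had a Spearman rho of 0.684, 0.778, 0.785 and 0.781 in replicates 1 to 4. This is a description across genes that share libraries and neighbours, and over all protein-coding genes rho was 0.275 to 0.376.

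**Figure D3:**
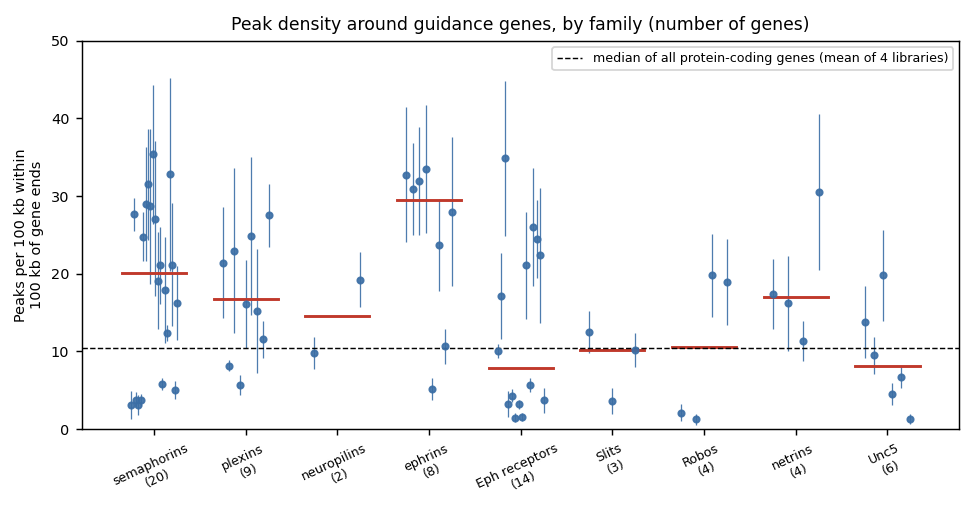
Peaks per 100 kb within 100 kb of gene ends (y axis) for each member, as points with SD over the 4 libraries, by family, with the family median as a red line. The dashed line is the median of all protein-coding genes, 10.5. Red and dashed lines are means of the 4 library medians. Within semaphorins, Eph receptors and Robos the genes fall far above and far below the dashed line.

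A dense surrounding and a strong gene-end peak did not always go together. Epha7 had 1.55 ± 0.49 peaks per 100 kb and no other protein-coding gene within 500 kb, yet its gene-end peak stood at 98.7 ± 0.20. Unc5d had 1.31 ± 0.66 peaks per 100 kb and stood at 91.4 ± 3.80. In Sema6b the order was the opposite, with 32.8 ± 12.4 peaks per 100 kb and a gene-end percentile of 73.2 ± 28.1.

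Replicate 1 differed from the other libraries in opposite ways at different members. At 45 of 70 genes (64.3%) it had fewer peaks per 100 kb than each other library, against 71.8% of all genes. At 16 genes (22.9%) it had more than each other library, against 5.67% of all genes. These were Efna5, Epha3, Epha5, Epha7, Robo1, Robo2, Sema3a, Sema3c, Sema3d, Sema3e, Sema5a, Sema6a, Sema6d, Slit2, Unc5c and Unc5d. Robo1 had 3.75, 2.0, 1.25 and 1.5 peaks per 100 kb in replicates 1 to 4, Sema3a 5.75, 1.75, 2.0 and 3.0, and Slit2 6.0, 3.5, 2.75 and 2.25. Replicate 1 was also highest in summits inside Slit2, with 14, 7, 6 and 7, and inside Robo2, with 35, 18, 17 and 16. It was not highest inside Sema6a, with 19, 19, 19 and 23. These counts include summits within 100 kb of the gene ends that the density also counted. All 16 genes were over 100 kb long and had at most 4.06 neighbours per Mb.

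Other genes of that kind showed the pattern more often than genes at large. Among all protein-coding genes over 100 kb with under 5 neighbours per Mb, limits chosen after the values were seen, 29.6% had more peaks in replicate 1 than in each other library, and so did 16 of the 24 guidance genes of that kind (66.7%). When every list was cut to the length of the shortest, the count of members rose from 16 to 28 (40%), against 18.1% of all genes, and all 16 genes were among them. With a −log10 q of 5 or more it was 40 (57.1%), against 39.1%. Median fold, list length and the word in the peak names all separate the same library, and their part in this result cannot be told apart.

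**Figure D4:**
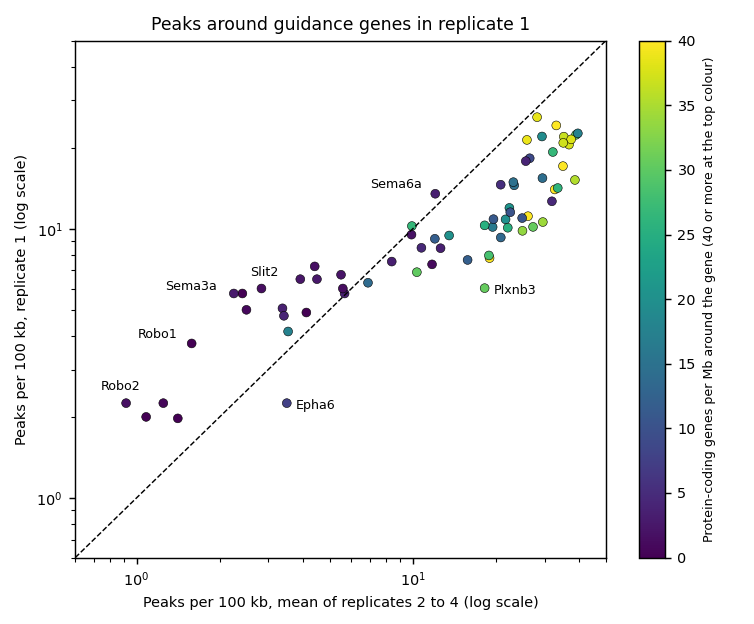
Peaks per 100 kb in replicate 1 (y axis) against the mean of replicates 2 to 4 (x axis), both on log scales, for the 70 members, with colour for protein-coding genes per Mb within 500 kb. Robo1, Robo2, Sema3a and Slit2, with few neighbours, lie above the dashed line of equality, and most genes with many neighbours lie below it.

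Strong regions away from gene ends were sought among merged regions that held a peak of all 4 libraries, lay within 100 kb of the member's ends and lay over 2 kb from every protein-coding gene end. The inner stretch of the longest genes was thus not searched. Such regions lay inside Plxna1 (89341737 to 89355091 on chromosome 6, percentile 98.7 ± 0.19) and Plxnd1 (115976409 to 115988278, also chromosome 6, 98.7 ± 0.36). Inside Sema4b the region from 80196213 to 80201527 on chromosome 7 stood at 98.0 ± 0.62 and covered the inner annotated start of that gene, at 80198588. Inside Unc5c the region from 141498062 to 141499175 on chromosome 3 stood at 97.3 ± 1.12, above the gene-end peak of 96.8 ± 0.41 by less than its spread. The Sema6d region from 124608450 to 124611505 on chromosome 2, inside the gene, stood at 96.4 ± 0.69, whereas the Sema6d gene-end peak stood at 50.9 ± 22.0. Nrp2 had 24 such regions within 100 kb, Ephb2 28, Sema4d 27 and Ntn1 23, while Unc5d and Ephb6 had none. These counts come from unequal lengths of DNA. Per 100 kb searched, the median was 3.30 such regions for guidance genes and 1.95 for all protein-coding genes.

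The genes that act with these families were taken from a list of 58 coreceptors and effectors. A gene-end peak was present in all 4 libraries at 54 of them (93.1%), against 66.7% of all genes, and their median density was 9.84, 15.6, 17.0 and 16.1 peaks per 100 kb in replicates 1 to 4. Both values were close to those of the guidance genes themselves. The netrin receptors differed: neogenin (Neo1) stood at 96.7, 95.7, 96.6 and 96.2, and Dcc at 10.5, 30.0, 42.3 and 54.7. The ranges of the 2 genes did not overlap. Ntng1, which encodes a membrane-anchored netrin relative, and Enah, an actin regulator, lacked a gene-end peak in all 4 libraries. Dscam, a netrin-binding adhesion molecule, had one in 2 libraries and Mical3 in 3. Annotated starts inside the pathway genes are not reported here, so a promoter away from the gene ends may have been missed. Enah had 14.7 ± 2.84 peaks per 100 kb.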

How the data were processed

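ATAC-seq was made from 4 libraries of E15.5 wild-type lung, which form 1 group. The authors deposited 1 narrowPeak list per library. The submitters' processing notes name, without stating roles, MACS3 3.0.1, bedtools 2.31.0, SAMtools 1.18, Bowtie2 2.5.2, deepTools, Trim Galore, FastQC 0.12.1 and the build mm10. Settings, duplicate handling and Tn5 shift are not given in the sources used here. The deposited fold was read as the ratio of summit pileup to background within a library, with 1 added to each. The deposited −log10 p and −log10 q describe the summit, and the deposited score is 10 times the −log10 q. Each fold below 15 was a whole number of steps to within 0.02 steps (100% of peaks), which gave background pileups of 2.11, 2.62, 2.59 and 2.21; read totals were not analysed here.

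Peaks on other contigs (1245 to 1814 per list) were left out. Gene positions and promoters were RefSeq on GRCm38.p6; exons were not used here. Counts, percentiles and densities were computed with Python 3.11.15, numpy 2.4.6 and pandas 2.3.3, and peak assignment was tested on simulated data. With 1 group no comparison between groups was possible; Dixon's criterion for a library that stands apart was the only test, and lists are given beside the same measure over all protein-coding genes. The members and lists were chosen with earlier results of these data known. The rule for named genes took all neuropilins, ephrin-Bs, Slits, Robos, netrins and Unc5 genes, members not open, the highest and lowest of each other subfamily by percentile, the 3 members of each with most peaks per 100 kb, and a fixed set of genes of lung, vessel and nerve growth; Epha1, Epha3, Epha5, Ephb1, Ephb6, Sema3d, Efna2, Sema4f and Sema4g fall outside it, and those of them that are named were chosen after their values were seen. Alternatives were a −log10 q of 5 or more, lists of equal length, each library left out, at least 3 of 4 libraries, windows of 0.5 and 2.5 kb, summit rules, any-base overlap, a reach of 50 kb and summits over 2 kb from gene ends.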

Additional observations from a re-analysis of the deposited data

Results flagged for a closer look

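In 32 of 145 sets of 4 library values, 1 library stood apart from the other libraries by Dixon's criterion for 4 values, which chance meets in about 1 of 20 sets of continuous values. That rate does not hold for the 10 sets that are counts of genes, of which 3 are among the 32, since a difference of 1 gene from tied values always meets the criterion. All sets come from the same 4 libraries and are not independent of each other. Replicate 1 was the library that stood apart in 30 sets. Its higher median fold and the word in its peak names are described above, and their part in these values was not tested.

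The median gene-end percentile was lowest in replicate 1 over all guidance genes (88.8, others 94.7 to 95.7), semaphorins (85.05, others 92.9 to 94.5), plexins (92.2, others 95.7 to 96.3), ephrins (94.1, others 97.4 to 97.8) and Slits (86.1, others 94.0 to 95.2). Over all protein-coding genes the median was likewise lowest in replicate 1 (90.5, others 95.1 to 95.5), so this order is not particular to guidance genes. The number of genes with a gene-end peak was lowest in replicate 1 for Eph receptors (12, others 13) and Slits (2, others 3), and lowest in replicate 2 for semaphorins (19, others 20), where Sema3a had none.

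Among semaphorins the gene-end percentile of replicate 1 stood below the others at Sema3g (81.4), Sema4b (84.7), Sema4d (70.7), Sema5b (85.8), Sema6a (97.6), Sema6b (31.4), Sema6d (18.1) and Sema7a (78.8). Among plexins it did so at Plxna1 (84.7), Plxna3 (92.7), Plxnb1 (91.8), Plxnc1 (74.6) and Plxnd1 (96.8). The same was true of the Eph receptors Epha10 (21.8) and Ephb2 (75.0), of Efna3 (79.3), of Ntn4 (14.3) and of Unc5a (76.4). Slit3 was the exception, with replicate 4 lowest at 95.1 and the others at 95.6 to 95.7.

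Peaks per 100 kb were lowest in replicate 1 at Epha6 (2.25, others 3.5), Efnb2 (7.38, others 11.5 to 12.3) and Sema4a (20.9, others 34.2 to 36.4). They were highest in replicate 1 at Robo2 (2.25, others 0.75 to 1.0) and Efna5 (7.25, others 4.25 to 4.50).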

How the results depend on the processing

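Of 135 recomputed values 124 stayed within the spread between libraries or, for counts, within 1.5 times. Each median percentile or density below is the mean of the 4 library medians. With a −log10 q of 5 or more, the median gene-end percentile was 88.9 and the median density 7.73 peaks per 100 kb. The members with more peaks in replicate 1 than in each other library then numbered 40. With lists of equal length the density was 11.6 and the number of such members 28. With the summit required in the gene-end window, 5 plexins, 1 neuropilin, 4 ephrins and 0 Robos were open and the median percentile was 89.8. The total of open genes fell from 63 to 46 under that rule and is among the 124. Its share fell from 90% to 65.7%, against 66.7% and 60.5% of all genes. With summits over 2 kb from every gene end the density was 11.8. Apart from the filters themselves, the cause of these shifts was not tested. The alternatives on the replicate 1 pattern, the starts and the other pathway genes were chosen after seeing the data. Read depth was not analysed here, so a missing peak was not detected rather than absent. No paired analysis was possible because the libraries form a single group.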
